A study of Mus musculus with 12 samples.

Results

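The interleukin-1 family and its receptors were followed in 12 SVR tumors as 9 genes of the 54232 in the count table, taken by gene name. They are the ligands Il1a, Il1b, Il18 and Il33, the antagonist Il1rn, the signaling receptors Il1r1 and Il1rl1, the shared co-receptor Il1rap and the decoy receptor Il1r2. SVR is a mouse angiosarcoma line, made by transforming endothelial cells with Ras, and it was grown as xenografts in adult athymic nude mice, which lack T cells. The labels give the strain as C57BL/6. Tumors were left to establish for 3 to 7 days, after which the mice were gavaged daily. The 4 groups of 3 tumors received vehicle (control), 1 mg/kg of the MEK inhibitor trametinib, 3 mg/kg of the VEGF receptor inhibitor cediranib, or both drugs at these doses (combination). The sources used here do not give the treatment experiment behind each tumor, and time on treatment can differ between groups. Exome probes captured the RNA of the tumor lysate. Tumor and host are both mouse, and their reads were not separated. All groups share 1 cell line, so the values describe this model only.

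Interleukin-1 alpha and beta are cytokines that start inflammation. They bind Il1r1, which then recruits Il1rap, and the pair signals through Myd88 and the IRAK kinases to NF-kappaB. The antagonist Il1rn occupies Il1r1 without signaling, and the decoy Il1r2 binds ligand but cannot signal. Il33 is a nuclear alarmin of endothelial and epithelial cells whose receptor, Il1rl1 (ST2), also uses Il1rap. Interleukin-1 beta and interleukin-18 are made as precursors that caspase-1 cuts in the inflammasome. Myeloid cells are the main source of interleukin-1 beta, whereas keratinocytes of the skin store interleukin-1 alpha.

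The genes lie in a few clusters (GRCm38, coordinates of the deposited table, each span covering exons, introns and untranslated regions). Il1r2 (chr1:40074079-40125231), Il1r1 (chr1:40225080-40317257) and Il1rl1 (chr1:40429570-40465415) sit side by side on the plus strand of chromosome 1. Il1a (chr2:129299610-129309972) and Il1b (chr2:129364570-129371139) are neighbors on the minus strand of chromosome 2, where Il1rn (chr2:24336853-24351494) lies far from them on the plus strand. Il18 (chr9:50554827-50581840), Il33 (chr19:29925114-29960718) and Il1rap (chr16:26581704-26728228) are on the plus strands of other chromosomes.

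Il1b and Il1rap carried the differences between groups described here, and the 250 bases before their RefSeq starts are printed 5′ to 3′ (GRCm38.p6, RefSeq promoter windows) to show that the start regions of these genes are unlike in letters. The Il1b sequence is chr2:129371140-129371389 on the minus strand and the Il1rap sequence is chr16:26581455-26581704 on the plus strand. Capitals mark a TATA box match, TATAAA.
Il1b: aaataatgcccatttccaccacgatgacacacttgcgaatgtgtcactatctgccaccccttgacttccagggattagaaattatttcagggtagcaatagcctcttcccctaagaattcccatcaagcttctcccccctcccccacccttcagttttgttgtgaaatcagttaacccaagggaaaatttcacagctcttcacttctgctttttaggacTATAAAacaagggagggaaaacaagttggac
Il1rap: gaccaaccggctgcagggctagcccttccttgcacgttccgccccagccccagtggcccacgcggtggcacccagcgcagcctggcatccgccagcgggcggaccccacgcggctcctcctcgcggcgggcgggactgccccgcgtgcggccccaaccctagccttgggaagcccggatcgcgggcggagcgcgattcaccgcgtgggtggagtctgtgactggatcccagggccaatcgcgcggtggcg
The whole windows of 300 bases, 250 before and 50 after the start, were searched on both strands for TGANTCA (AP-1), the kappaB motif, CCGGAA (ETS) and, added after the sequences had been seen, TATAAA. In Il1b the only match was TATAAA, which begins 31 bases before the start, and Il1rap held none of these letters. Of 32851 promoter windows, 13.6% held TATAAA, 7.81% the AP-1 letters, 1.63% the kappaB motif and 14.9% the ETS letters. All 9 genes had a window, 14 windows in total. The AP-1 letters occurred in Il1a (TGACTCA, beginning 12 bases before the start) and in a window of Il1rn (TGAGTCA, 141 bases before), and the kappaB motif before another start of Il1rn (GGGTTTTTCC, 51 bases before). TATAAA also occurred in Il1a (32 bases before the start) and in windows of Il33 (29 and 203 bases before their starts). On the opposite strand it matched in Il18 and in a window of Il1rn. A match is a description of letters, and it was not tested whether any factor binds there.

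The libraries held 9478865 to 11666094 counts, and a filter on low counts left 12897 genes. A count of 3 in a library corresponded to 0.251 to 0.349 CPM (read counts scaled to library size with TMM factors), the limit set by a count of 0 when only counting error is considered. Il1b, Il33 and Il1rap passed the filter, and the 6 other genes did not. Genes were tested with the quasi-likelihood model of edgeR on all libraries, and a gene was called at a Benjamini-Hochberg false discovery rate (FDR) under 0.05 if its log2 fold change was also 1.5 or more in size. Biological variation between tumors of a group came to a coefficient of 27.16%. The study describes injection into the flank of each mouse, and the labels do not name the mouse of each tumor. The p-values measure the spread between these tumors. Defining endothelial genes were detected, with Cdh5, Tie1 and Pecam1 counted in every library. Libraries stood apart in other tissue. Skeletal muscle markers summed to 16440 CPM in control 2, 22373 in trametinib 2 and 1813 in trametinib 3, against 17.3 to 293 CPM in the other libraries, and control 2 and trametinib 2 are called muscle-rich below. Trametinib 3 stayed in the fits without the muscle-rich libraries. Keratins summed to 764 CPM in control 1, 5203 and 3002 CPM in cediranib 1 and 3, and 4517 to 6871 CPM in the combination tumors, against at most 10.1 CPM in the other libraries. Fits without the keratin-rich libraries leave out control 1, cediranib 1 and cediranib 3, since leaving out the combination tumors would remove the group. Results that depend on these libraries are given with and without them.

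Interleukin-1 beta transcripts were almost lost in trametinib treated tumors and were not lost in tumors treated with the combination. Il1b was read 38, 17 and 24 times in the control tumors, 6, 2 and 3 times in the trametinib tumors, 22, 22 and 36 times in the cediranib tumors and 32, 72 and 45 times in the combination tumors. In normalized terms the 3 trametinib tumors had 0.545, 0.233 and 0.251 CPM and the control tumors 3.24, 1.72 and 2.42 CPM. Every trametinib tumor was therefore below every tumor of the other groups. The cediranib tumors, at 2.20, 2.08 and 3.44 CPM, lay within or just above the range of the controls. The combination tumors, at 3.23, 6.54 and 4.18 CPM, met that range only at its upper end, where control 1 and combination 1 were nearly equal. Control tumors averaged 2.46 ± 0.757 CPM, trametinib tumors 0.343 ± 0.175, cediranib tumors 2.57 ± 0.756 and combination tumors 4.65 ± 1.70 CPM (SD, n = 3).

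Il33, the alarmin, varied more within groups than between them. It had 0.596, 2.53 and 3.03 CPM in control, 3.54, 0.931 and 1.26 in trametinib, 0.899, 1.32 and 2.97 in cediranib and 4.44, 1.72 and 1.58 CPM in combination tumors. The ranges of all groups overlapped, and within each group the highest tumor was well above the lowest. The other ligands were barely detected. Il1a totaled 13 counts over all libraries, with 0 in every trametinib tumor, 2 counts in all in control, 5 in cediranib and 6 in combination. Against 3 counts over the trametinib group, Il1a was at least 1.69-fold higher in cediranib and at least 1.99-fold higher in combination tumors. Cediranib 1 and combination 1 were themselves at 0, so both groups overlapped the trametinib group. Here and below, such bounds take the counts of the higher group as exact and leave out the spread between tumors. Il18 had 2 counts in total, 1 each in cediranib 2 and 3, and was at 0 in the 10 other libraries. At this depth no difference in Il18 was detectable.

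The antagonist Il1rn had 25 counts in total and 0 to 4 in any library, so no change in it was detectable at this depth. In trametinib tumors its 2, 0 and 4 counts stood beside 6, 2 and 3 counts of Il1b. In combination tumors the 3, 0 and 1 counts stood beside 32, 72 and 45. The count ranges of the ligand and its antagonist met in the trametinib group and in no other group.

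Among the receptors, only the co-receptor Il1rap was measured at a level that allowed a test. It had 16.1, 15.5 and 14.0 CPM in control, 7.63, 4.89 and 9.54 in trametinib, 17.2, 17.6 and 13.3 in cediranib and 12.6, 8.90 and 12.3 CPM in combination tumors. All trametinib tumors were below all control and cediranib tumors, and all combination tumors were below all control and cediranib tumors as well, while trametinib 3 and combination 2 overlapped. Group means were 15.2 ± 1.06, 7.35 ± 2.34, 16.0 ± 2.37 and 11.3 ± 2.08 CPM in the same order (SD, n = 3). The antisense gene Gm20319 shares 552 exon bases with Il1rap on the opposite strand and had 1191 counts in total, beside 1574 for Il1rap. Because the sources used here give no strand setting for the counting, reads in the shared bases cannot be told apart. Il1a shares 222 exon bases with the opposite gene Gm14023 (9 counts in total) and Il1b shares 25 with Il1bos (0 counts).

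The primary receptor Il1r1 was read in all 12 libraries but at only 1 to 12 counts. Its counts were 11, 9 and 5 in control, 7, 5 and 3 in trametinib, 3, 12 and 1 in cediranib and 11, 9 and 6 in combination tumors, and the ranges of all groups overlapped. The decoy Il1r2 had 2 counts in control 1 and 2 each in combination 1 and 3, and 0 elsewhere. Il1rl1, the Il33 receptor, had 8, 4 and 0 counts in trametinib, 0, 1 and 1 in control, 1, 1 and 4 in combination and 0 in every cediranib tumor. Trametinib tumors were at least 3.93-fold above the cediranib tumors for Il1rl1, taken against 3 counts over the cediranib group, although trametinib 3 was itself at 0. With no filter on low counts, none of these 6 sparse genes passed an FDR of 0.05 in any comparison by the quasi-likelihood test of edgeR. At an unadjusted p under 0.05 were Il1a in combination against trametinib (0.0364) and trametinib against cediranib (0.0496), Il1rl1 in trametinib against cediranib (0.00491, adjusted p 0.0655 by edgeR) and combination against cediranib (0.0281), and Il1r2 in the interaction of the drugs (0.0366).

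**Figure D1:**
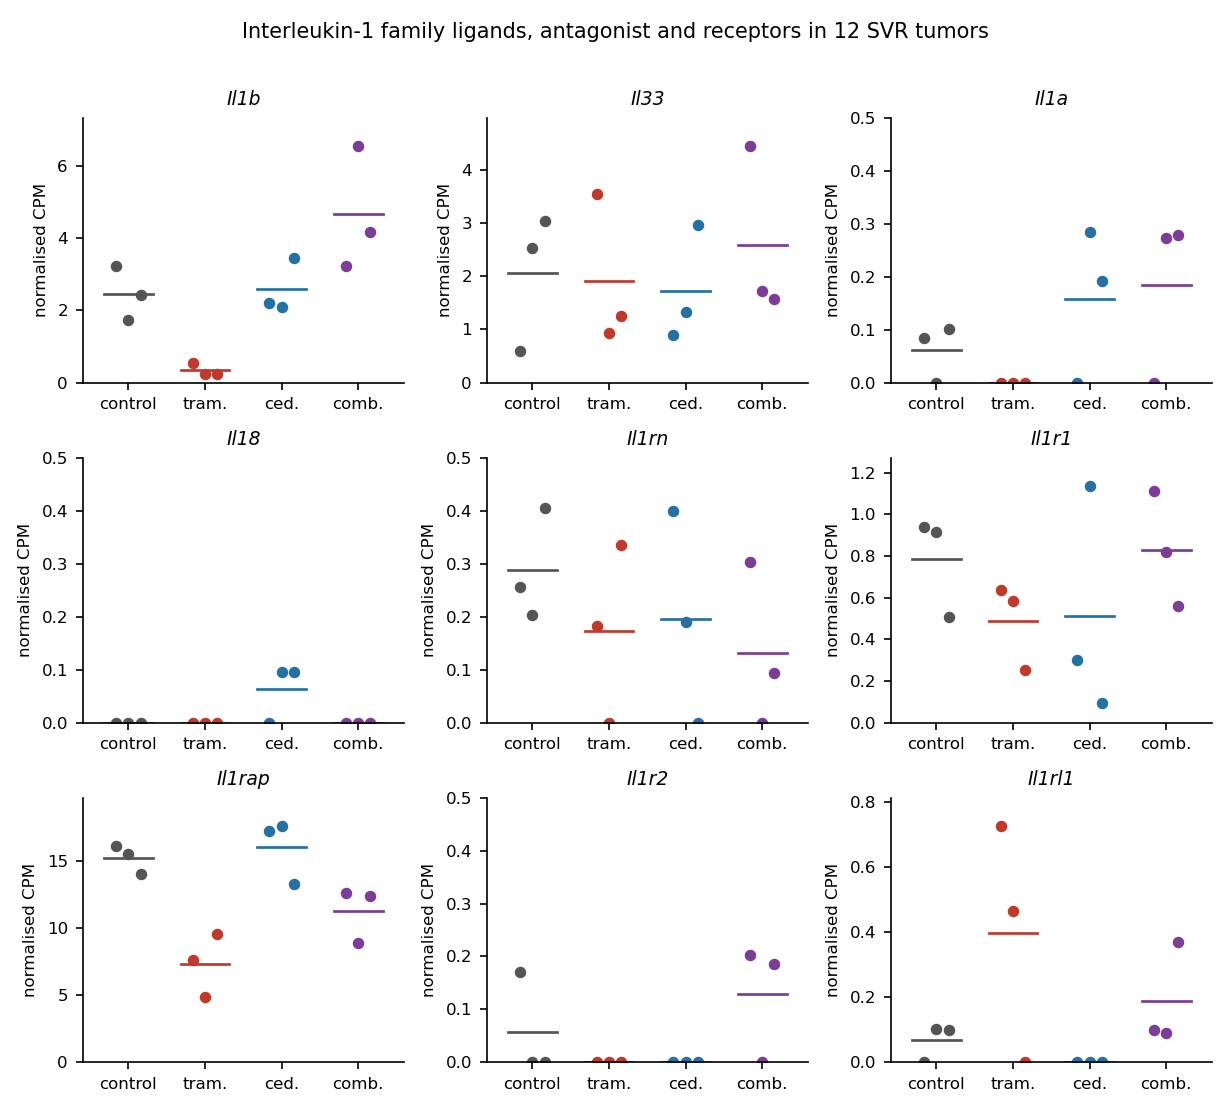
Normalized CPM (vertical axis, each panel with its own scale from 0) of the 9 genes in control, trametinib (tram.), cediranib (ced.) and combination (comb.) tumors. Each point is 1 tumor and each line is the mean of 3. The trametinib points for Il1b lie between 0.233 and 0.545 CPM, below all others, and those for Il1rap between 4.89 and 9.54 CPM.

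Levels of different genes were compared only as CPM per kilobase of the gene length in the table. In control tumors Il1rap (1.34) and Il1b (1.29) led, with Il33 at 0.712, and the ranges of these neighbors overlapped. Il1r1 followed at 0.123 CPM per kilobase, below the range of Il33. Cediranib tumors had the same order of the leading genes, with Il1rap at 1.41, Il1b at 1.35 and Il33 at 0.599, here with Il33 below the range of Il1b. In trametinib tumors Il33 (0.662) and Il1rap (0.647) overlapped at the top, and Il1b, at 0.180, was below both ranges. In combination tumors Il1b led at 2.44, above the range of Il1rap at 0.994, which overlapped that of Il33 at 0.895. By these means Il33 was ahead of Il1b in trametinib tumors and behind it in the other 3 groups.

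Trametinib treated tumors compared to control addressed what MEK inhibition alone changed. Il1b fell by 2.79 on the log2 scale (SE 0.47), 6.92-fold lower with an adjusted p of 0.00448 in the quasi-likelihood test of edgeR, and was lower in 3 of 3 tumors. It was the only called gene of the 3 tested, where 1.43% of all genes tested were called lower and 2.4% in either direction. Il1rap fell by 1.04 (SE 0.24, 2.06-fold lower, adjusted p 0.0249 by edgeR), which passed the FDR threshold but not the fold threshold. By FDR alone 3.47% of genes tested were lower, and in 12.9% of genes tested every trametinib tumor was below every control tumor, as for Il1b and Il1rap. Il33 differed by -0.08 (SE 0.69, adjusted p 0.966 by edgeR). The Il1b call held without any of the 6 tumors, with log2 fold changes of -3.28 to -2.55. For Il1rap the adjusted p rose to between 0.0535 and 0.0698 when control 1, 2 or 3, trametinib 1 or trametinib 2 was left out, and was 0.0211 without trametinib 3. Without the muscle-rich control 2 and trametinib 2, Il1b differed by -2.81 (adjusted p 0.0304, edgeR) and Il1rap by -0.81 (0.145). Without the keratin-rich libraries the adjusted p for Il1rap was 0.0923.

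Cediranib treated tumors compared to control asked the same of VEGF receptor inhibition. Il1b differed by 0.06 (SE 0.38), Il1rap by 0.07 (SE 0.23) and Il33 by -0.23 (SE 0.70) on the log2 scale, and the adjusted p was 0.999 for each by the quasi-likelihood test of edgeR. None of the 3 was called, and 0% of all genes tested were. At an unadjusted p under 0.05 there were 0 of the 3 genes and 557 of all genes (4.32%). DESeq2 and the likelihood ratio test of edgeR also called 0 of the 3, among 10 and 14 calls over all genes. The groups overlapped for all of them.

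Combination treated tumors were set against each drug given alone. Compared to trametinib, Il1b was 3.70 higher on the log2 scale (SE 0.46), 13.0-fold, with an adjusted p of 0.0196 in the quasi-likelihood test of edgeR, and every combination tumor was above every trametinib tumor. It was the 1 call among the 3 genes, where 0.535% of genes tested were called higher and 0.675% in either direction; groups did not overlap upward in 12.4%. This call was lost without trametinib 2 (adjusted p 0.0551), trametinib 3 (0.0663) or combination 2 (0.0646), while the log2 fold change stayed between 3.39 and 4.19 over the 6 tumors left out in turn. Without the muscle-rich libraries it was 3.52 (adjusted p 0.0541, edgeR). Il1rap was 0.61 higher (SE 0.24, unadjusted p 0.0263, adjusted p 0.212 by edgeR) and the groups overlapped. Compared to cediranib, Il1b differed by 0.85 (SE 0.37, adjusted p 0.194 by edgeR) with overlapping groups, Il1rap by -0.51 (SE 0.24, adjusted p 0.224) without overlap, and Il33 by 0.57 (SE 0.69). None was called, where 2.45% of genes tested were, and 14.3% did not overlap downward.

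Compared to control, combination tumors had Il1b at 0.91 above (SE 0.37, unadjusted p 0.0314, adjusted p 0.14 by the quasi-likelihood test of edgeR), which did not pass. Il1rap differed by -0.43 (SE 0.24, adjusted p 0.266 by edgeR), with all combination tumors below all controls, as for 15.7% of genes tested. None of the 3 genes was called, where 3.61% of all were. Il33 differed by 0.34 (SE 0.68) from control and by 0.41 (SE 0.68) from trametinib. In these tests 1 of the 3 genes, Il1b, had an unadjusted p under 0.05 against control and against cediranib, as had 27.2% and 23.1% of genes tested. DESeq2 called 0 of the 3 genes in both comparisons.

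The trametinib and cediranib groups differed directly in Il1b by -2.85 (SE 0.47, 7.21-fold lower in trametinib, adjusted p 0.00357 by edgeR) and in Il1rap by -1.12 (SE 0.24, adjusted p 0.0153 by edgeR). Il1b was the 1 call of 3, where 1.97% of genes tested were called lower and 3.49% in either direction. This call was lost without the keratin-rich libraries (-2.54, adjusted p 0.0943, edgeR) and with the epidermal score described below in the model (-2.19, 0.0927). Both genes had no overlap, as 13.9% of genes tested downward, and by FDR alone 4.47% were lower. The Il1rap result did not pass without cediranib 1 (-1.06, adjusted p 0.0579, edgeR), without the muscle-rich libraries (-0.89, 0.0614) or without the keratin-rich ones (-1.25, 0.145). Il33 differed by 0.15 (SE 0.70, adjusted p 0.931 by edgeR).

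**Figure D2:**
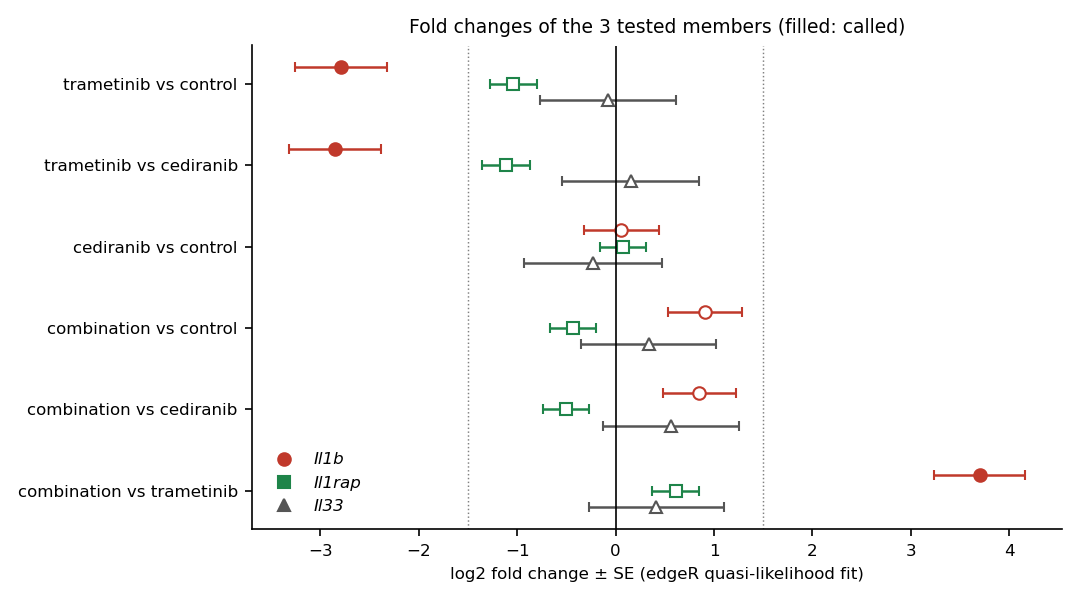
Log2 fold changes (horizontal axis, point ± SE from the edgeR quasi-likelihood fit) of Il1b, Il1rap and Il33 in the 6 comparisons between groups (vertical axis). Filled points are called, and the dotted lines mark a log2 fold change of 1.5 in either direction. Il1b is called in the 3 comparisons that involve trametinib alone, at -2.79, -2.85 and 3.70, and Il33 lies within its SE of 0 throughout.

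Trametinib was thus tested without cediranib (against control) and with it (combination against cediranib), in pairs of groups that share no tumor. Il1b differed by -2.79 without cediranib and by 0.85 with it, and Il1rap by -1.04 and -0.51. The difference between these effects, the interaction of the drugs, was 3.64 for Il1b on the log2 scale (SE 0.60, unadjusted p 5.63e-05, adjusted p 0.185 by the quasi-likelihood test of edgeR). It did not pass, and 0 of the 3 genes and 0% of all genes tested passed it, with 909 genes (7.05%) at an unadjusted p under 0.05. For 6 genes (0.0465%) the unadjusted p was under 0.0001, Il1b among them. The tools parted here. Il1b passed with DESeq2 (adjusted p 0.00177), with the likelihood ratio test of edgeR (0.00018) and with no filter on low counts (1.63e-05), which called 28, 28 and 261 genes in all. For Il1rap the interaction was 0.54 (SE 0.34, adjusted p 0.767 by edgeR) and for Il33 0.64 (SE 0.98, adjusted p 0.914). Whether the trametinib effect on Il1b depended on cediranib therefore passed or missed the threshold with the choice of test.

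Some epidermal genes, like Il1b, were called lower in trametinib against cediranib and higher in combination against trametinib. The epidermis list without keratins (28 genes, such as Lor, Ivl and Trp63) summed to 35.9 to 102 CPM in control, 38.5 to 54.3 in trametinib, 54.4 to 311 in cediranib and 369 to 588 CPM in combination tumors. Of its genes 14 to 18 were at 0 in each trametinib tumor, 15 in control 2, 14 in control 3, 9 in cediranib 2, 2 in control 1 and at most 1 in each of the other tumors. Among the 23 tested, 1 (Ivl) was called lower in trametinib against control, where 1.43% of all genes tested were, and 15 in trametinib against cediranib, where 1.97% were. Called higher were 10 in combination against trametinib (0.535% of all genes), 10 in combination against control (1.91%) and 1 in combination against cediranib (1.29%). An epidermal score, the mean log2 CPM of these 23 genes, was -0.996, -1.17 and -1.05 in trametinib and 2.82, 3.48 and 3.13 in combination tumors. Control 2 and 3 and cediranib 2 had low scores as well, at -0.54, -0.46 and -0.46, and their Il1b was 1.72, 2.42 and 2.08 CPM. Both the scores and the Il1b of these 3 tumors were above those of every trametinib tumor, whose Il1b was 0.233 to 0.545 CPM.

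With this score in the model, Il1b differed by -2.50 in trametinib against control (adjusted p 0.0113 by edgeR) and was still called. In combination against trametinib it differed by 2.69 (adjusted p 0.737, edgeR) and was not called. Without the keratin-rich control 1, cediranib 1 and cediranib 3, it differed by -2.55 in trametinib against control (0.0264, edgeR) and was called. Whether epidermis in the tumor pieces contributed the Il1b of the combination tumors was not tested. In bulk RNA, fewer cells of a type and less RNA per cell cannot be told apart.

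**Figure D3:**
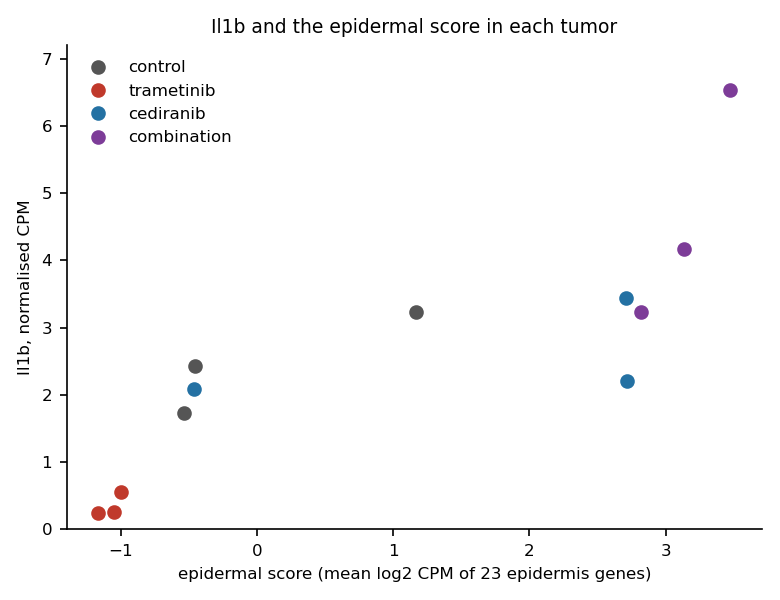
Il1b in normalized CPM (vertical axis, from 0) against the epidermal score (horizontal axis, mean log2 CPM of 23 epidermis genes) in the 12 tumors, with 1 point per tumor colored by group. The trametinib points lie at the lower left, with scores of -1.17 to -0.996 and Il1b of 0.233 to 0.545 CPM, and the combination points at the upper right.

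Leukocyte markers moved in different directions. The monocyte and macrophage list (13 genes) summed to 440 to 738 CPM in control, 351 to 510 in trametinib, 317 to 509 in cediranib and 232 to 387 in combination tumors. Of its 12 tested genes, Cd68 and Fcgr1 were called lower in combination against control (median log2 fold change of the 12 -1.17, with 1.71% of all genes called lower) and Cd68 in combination against trametinib (median -0.94, with 0.14% of all genes called lower). In trametinib against control, where 1.43% of all genes were called lower, 0 of the 12 were called by edgeR, 2 (Mrc1 and Fcgr1) were lower at an unadjusted p under 0.05, and the median was -0.04. Neutrophil markers were sparse. Ly6g and Retnlg were at 0 in all 12 libraries, and the 11 genes summed to 0.203 to 3.33 CPM in control, 0.698 to 1.63 in trametinib, 1.91 to 3.03 in cediranib and 4.24 to 9.26 in combination tumors. S100a9, a neutrophil protein that skin can also make, was called higher in combination against control (3.91, adjusted p 0.026 by edgeR). It was the 1 call of 3 neutrophil genes tested, beside 1.91% of all genes, a share that also applies to Cpa3 below. Its counts were 12, 22 and 16 in combination tumors and at most 9 in any other library. S100a9 thus passed the filter on low counts only through the group where it was high. The mast cell list (8 genes, Fcer1a at 0 in all libraries) summed to 3.34 to 39.0 CPM in control, 6.87 to 17.1 in trametinib, 18.4 to 36.7 in cediranib and 58.2 to 118 in combination tumors, with Cpa3, a mast cell protease, called higher in combination against control (3.40, adjusted p 0.012 by edgeR). The endothelial list (12 genes) summed to 255 to 506, 114 to 174, 155 to 395 and 79.3 to 143 CPM in the same order of groups. Of its 10 tested genes 4 (Flt1, Pecam1, Tie1 and Cdh5) were called lower in trametinib against control, beside 1.43% of all genes tested. Called lower were 5 in combination against control (1.71% of all genes), 3 in combination against cediranib (1.16%) and 2 in trametinib against cediranib (1.97%). The fibroblast list (8 genes, all tested) summed to 2224 to 21144 CPM in control and 8855 to 37110 CPM in trametinib tumors, with overlap. Its median log2 fold change in trametinib against control was 1.45, with 8 of 8 higher and 1 (Fbln1) called, beside 0.977% of all genes. In trametinib against cediranib 4 (Lum, Fbln1, Dpt and Col3a1) were called higher, beside 1.52% of all genes. The part of any of these cells in the Il1b and Il1rap values was not tested.

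A sensor of the inflammasome fell together with Il1b. Nlrp3, which senses cell damage and assembles caspase-1, was read 14, 13 and 6 times in control, 3, 14 and 4 times in cediranib and 8, 10 and 18 times in combination tumors, and 0 times in each trametinib tumor. Against 3 counts over the trametinib group it was at least 11.0-fold higher in control, 7.12-fold in cediranib and 11.9-fold in combination tumors. The adjusted p was 0.0124, 0.021 and 0.0435 in the comparisons of trametinib with control, with cediranib and with combination (quasi-likelihood test of edgeR), and all 3 were called. Nlrp3 was the only call among the 8 tested of 19 inflammasome and maturation genes. Of all genes tested, 1.43% were called lower in trametinib against control and 1.97% against cediranib, and 0.535% higher in combination against trametinib. The median log2 fold change of the 8 was -0.52 in trametinib against control, beside 0.0057 over all genes tested. The call against control held without any 1 tumor and was lost without both muscle-rich libraries (adjusted p 0.0738). The call against cediranib was lost without trametinib 1 (0.0528) or trametinib 3 (0.0597), and the call against combination was lost without any 1 of the 6 tumors (0.0882 to 0.114). Casp1, the protease that cuts the precursor, had 0 to 2 counts in any library, and its adaptor Pycard 0 to 5.

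Ligands and receptors of the wider family were mostly silent. Of the 5 other ligands none passed the filter. The exception in level was Il36rn, the antagonist of the interleukin-36 receptor and a gene of stratified epithelium, which had 4, 9 and 7 counts in combination tumors, 2 in cediranib 1 and 0 in every control and trametinib tumor. Against 3 counts over the group it was at least 6.63-fold above control and at least 6.64-fold above trametinib. Cediranib 3, with as few epidermis genes at 0 as cediranib 1, had 0 counts of it. Among 7 other receptors and binding proteins only Il18bp, which neutralizes interleukin-18, could be tested. It had 4.09, 3.04 and 3.43 CPM in control and 6.06, 8.08 and 7.33 CPM in combination tumors, without overlap, as for 15.6% of genes tested upward, and the difference of 1.02 did not pass (adjusted p 0.068 by the quasi-likelihood test of edgeR).

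Signal transduction below the receptors held mostly level, with 1 call. Among all genes tested, 0.977% were called higher in trametinib against control, 1.91% in combination against control, 1.29% in combination against cediranib and 1.52% in trametinib against cediranib. All 22 genes of this list were tested, and their median log2 fold change was -0.02 in trametinib against control and 0.20 in combination against cediranib, beside 0.0057 and 0.0043 over all genes. The called gene was Map3k8 (TPL2), a kinase that activates MEK below interleukin-1 and Toll-like receptors. It had 1.70, 0.811 and 0.909 CPM in control, 4.63, 2.91 and 3.52 in trametinib, 1.8, 1.04 and 0.861 in cediranib and 4.54, 4.36 and 8.26 CPM in combination tumors. Every tumor given trametinib, alone or combined, was above every tumor that was not. Map3k8 was 1.67 higher in trametinib against control (SE 0.41, adjusted p 0.0326 by edgeR) and 2.21 higher in combination against cediranib (SE 0.40, adjusted p 0.00876 by edgeR), pairs that share no tumor. The first call was lost without control 2 (0.113), control 3 (0.118), trametinib 1 (0.11) or trametinib 3 (0.0756), and the second held without any 1 tumor but was lost without the keratin-rich libraries (0.0611). Map3k8 was also called in combination against control (2.30, adjusted p 0.00674 by edgeR) and in trametinib against cediranib (1.58, adjusted p 0.0335 by edgeR), the latter lost without trametinib 1 (0.103), trametinib 2 (0.0509), trametinib 3 (0.0761), cediranib 2 (0.0839) or cediranib 3 (0.116). Myd88, the first adaptor of the receptor, fell by 0.74 in trametinib against control (SE 0.20, adjusted p 0.0472 by edgeR) and was not called for its size.

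Genes that interleukin-1 is known to induce did not move as 1 group. Of 24 such genes 9 were tested, 2 of them higher and 7 lower in trametinib against control. Their median log2 fold change was -0.49, beside 0.0057 over all genes tested. There was 1 call, where 0.977% of all genes tested were called higher and 2.4% in either direction. That call was Saa3, an acute phase protein, which rose by 2.91 (SE 0.47, adjusted p 0.00374 by edgeR), against the direction of Il1b. Saa3 had 1.45, 0.608 and 1.62 CPM in control and 10.1, 8.73 and 9.21 CPM in trametinib tumors, and 7.27, 10.3 and 3.25 CPM in combination tumors, where it was called against control as well (2.49, adjusted p 0.00878 by edgeR). Between trametinib and cediranib it differed by 1.76 (adjusted p 0.0285 by edgeR), a call lost without trametinib 1 (0.0725), 2 (0.0582) or 3 (0.0683) or without cediranib 1 (0.111) or 3 (0.0912). Saa3 belongs to a gene family, and whether its reads are shared with its relatives was not tested. Nfkbiz, an NF-kappaB cofactor that interleukin-1 induces, had 9.62, 5.82 and 7.70 CPM in trametinib and 25.6, 27.1 and 29.3 CPM in combination tumors and was called between them (1.82, adjusted p 0.0462 by edgeR). That call was lost without any 1 of the 6 tumors (adjusted p 0.097 to 0.139). Sele, the endothelial adhesion molecule E-selectin, had 25 counts in all in control, 26 in cediranib, 2 in combination and 0 in trametinib tumors, and was at least 8.35-fold higher in control than in trametinib. Il6, a classical target, had 1 count in all 12 libraries, and the chemokine Cxcl1 had 0 to 4 counts in any of them.

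**Figure D4:**
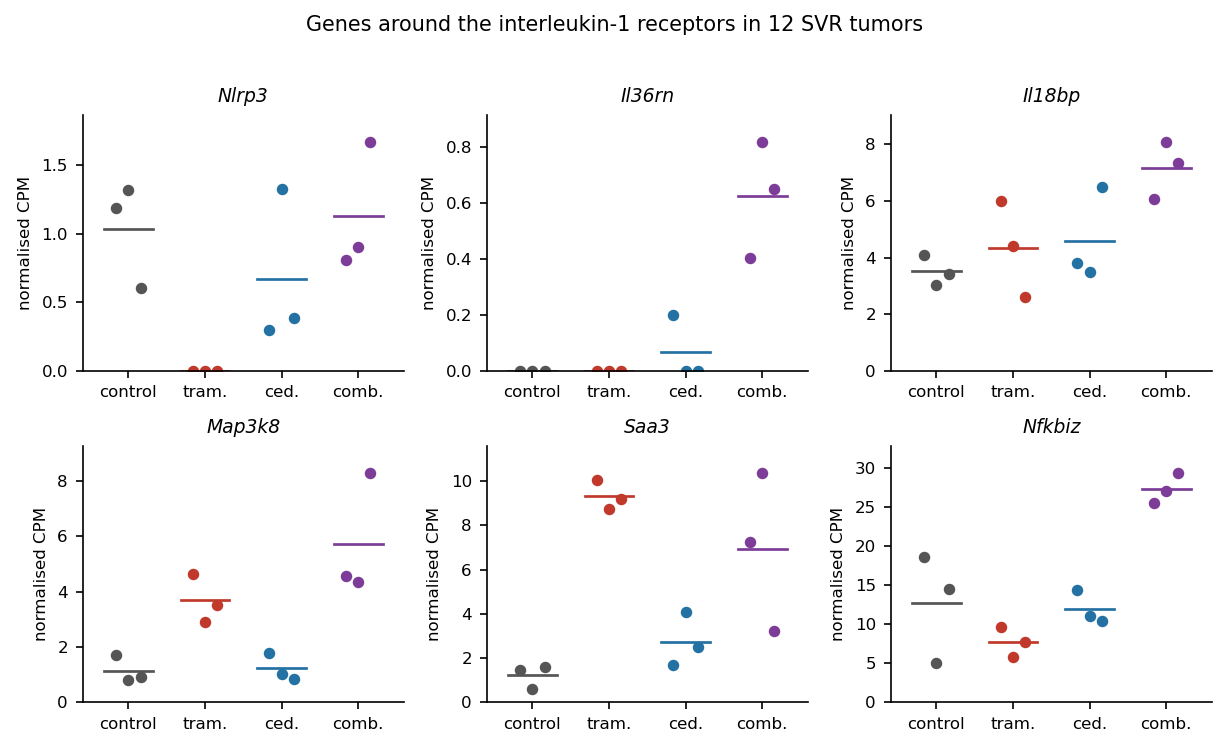
Normalized CPM (vertical axis, each panel with its own scale from 0) of 6 genes around the interleukin-1 receptors in the 4 groups, with 1 point per tumor and a line at the mean of 3. Nlrp3 is at 0 in the trametinib tumors, Il36rn reaches 0.404 to 0.817 CPM in the combination tumors, and Map3k8 is at 2.91 CPM or more in every tumor given trametinib.

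**Figure D5:**
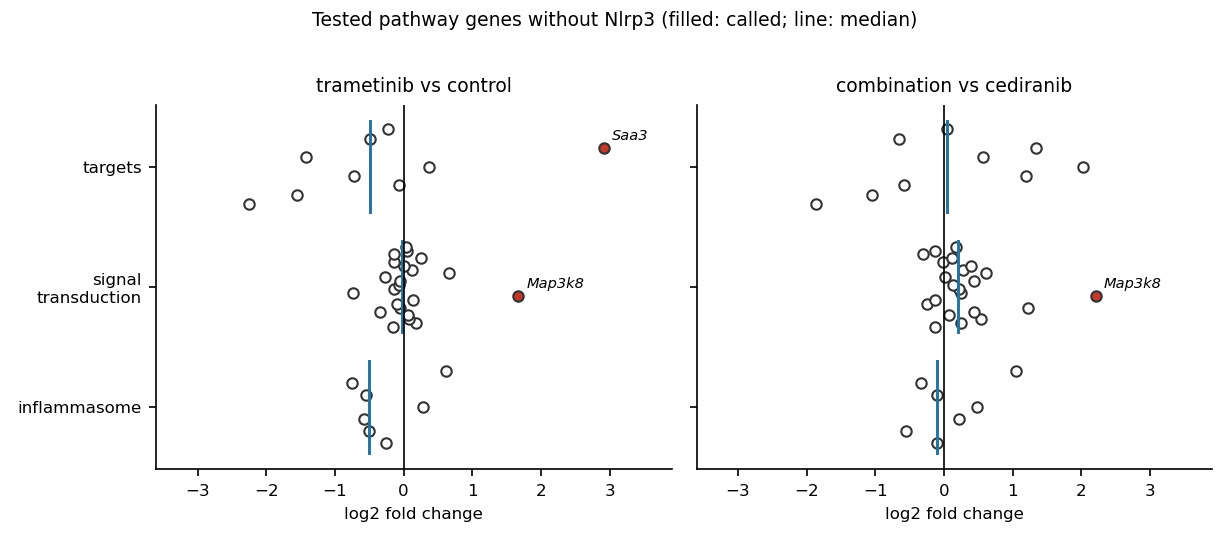
Log2 fold changes (horizontal axis) of the tested inflammasome, signal transduction and target genes without Nlrp3, whose trametinib tumors are at 0, for trametinib against control (left) and combination against cediranib (right). Each point is a gene, filled points are called, and the blue line is the median of the plotted genes. Map3k8 is called in both panels, at 1.67 and 2.21, and Saa3 in the left panel, at 2.91.

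The genes whose pattern over the 12 libraries was most like that of Il1b, by Pearson's r of log2 CPM and as a description, were Lce1g (0.93), a gene of the cornified envelope, Kdm7a (0.92) and Rhov (0.92). For Il1rap they were the antisense gene Gm20319 (0.97), Gm40578 (0.95) and Itga3 (0.92), an integrin subunit. For Il33 they were Rnf122 (0.79), Phactr4 (0.78) and 9230104M06Rik (0.78). Il1b and Il1rap had an r of 0.59 with each other, Il1b and Il33 0.15, and Il1rap and Il33 -0.02. The points share libraries and group differences, so these values rank genes and test nothing.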

How the data were processed

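RNA of 12 SVR tumors, 3 per treatment, was sequenced after exome capture (TruSeq RNA Exome). The authors used STAR 2.7.1a (GRCm38) for alignment and featureCounts 1.6.0 for counting, and the deposited values are raw counts without normalization, beside a gene length. Annotation release and strand setting: not given in the sources used here. Genes were matched by name and groups were taken from sample titles. Counts were filtered with filterByExpr (minimum count 10, minimum total 15), scaled with TMM, and tested by quasi-likelihood (edgeR 4.0.16, R 4.3.3) in 1 fit of all libraries, with Benjamini-Hochberg adjustment over 12897 genes. Each SE is the size of the log2 fold change over the root of its F statistic. The test was checked on simulated data. DESeq2 1.42.0, other scalings, no filter, a replicate block, an epidermal score and leaving out libraries were alternatives. The 2 sets of libraries left out together for muscle or keratin content were chosen after seeing the data. All 9 genes, the called genes of each pathway list and the 3 genes most like each tested gene are named, and for marker lists some called genes are named as examples. The genes and lists were chosen with earlier results of these data known. The columns of the table that are not used number 0. Interleukin-36 genes were matched through RefSeq synonyms. Protein sequences were not used here.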

Additional observations from a re-analysis of the deposited data

How the results depend on the processing

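The Il1b call in trametinib against control held under all 17 alternatives, and 0 calls among the 3 genes were made in cediranib, combination against control and combination against cediranib under any. In combination against trametinib the number called went from 1 to 0 with the epidermal score and without the muscle-rich libraries, and ranged from 0 to 1 over tumors left out in turn. In trametinib against cediranib it went from 1 to 0 with the epidermal score and without the keratin-rich libraries. For the interaction it went from 0 to 1 with no filter on low counts, DESeq2 or the likelihood ratio test. The causes were not tested.

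The values whose direction turned were not called in any of these fits. Il1b in cediranib against control was -0.31 with the epidermal score, -0.14 without the muscle-rich and -0.015 without the keratin-rich libraries, and -0.22 to 0.30 with 1 tumor left out. Il33 was 0.42 in trametinib against control without the muscle-rich libraries, 0.087 in cediranib against control and -0.29 in trametinib against cediranib with the epidermal score, and -0.12 in combination against control without the keratin-rich libraries. With 1 tumor left out, Il33 ranged from -0.88 to 0.32 (trametinib against control), -0.88 to 0.17 (cediranib against control), -0.30 to 0.73 (combination against control), -0.21 to 1.21 (combination against trametinib), -0.056 to 1.21 (combination against cediranib) and -0.65 to 0.78 (trametinib against cediranib). Il33 thus has no stable direction.

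Replicate numbers did not pair the tumors: of 18 same-number pairs 3 had a correlation of deviations over 0.1, from -0.22 to 0.36. With the replicate block Il1b was -2.79 in trametinib against control (adjusted p 0.0128, edgeR) and 3.72 in combination against trametinib (0.024), and no call among the 3 tested genes changed. Nlrp3 in combination against trametinib did not pass with the block (0.062). At these depths the 6 genes under the filter, with at most 12 counts in a library, limit any statement on Il1r1, Il1rn, Il1a, Il1r2, Il18 and Il1rl1. Map3k8 in trametinib against control did not pass in a fit of these groups alone (adjusted p 0.0525, edgeR), nor did Il1rap (0.0565).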
